A study of Mus musculus with 10 samples.

Results

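The transcripts read as a group were the mitochondrial carriers Ucp2 and Ucp3, the secreted lipase inhibitor Angptl4, the pantetheinase Vnn1, the retinol saturase Retsat, the cytochrome P450 Cyp4b1 and the fatty acid binding protein Fabp4. They are the uncoupling proteins of the heart together with further genes known as targets of the peroxisome proliferator-activated receptors (PPARs). These 7 genes and the lists set beside them were chosen by symbol, with earlier results of these data known. Shares of called genes are therefore given as description only. All 7 had a row among the 23303 gene entries, and 6 of them were among the 11651 entries with a mean of at least 1 FPKM over all libraries (fragment numbers relative to transcript length and library size). The samples were left ventricles of male 129X1/SvJ mice, 5 labelled CKD (chronic kidney disease) and 5 labelled Sham under surgery, with 1 library for each mouse. The labels name no operation, age, batch or pairing, and the tissue is whole ventricle, so every value mixes heart muscle with vessels, fibroblasts and immune cells.

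PPARs are nuclear receptors that are switched on by fatty acids and their derivatives. They pair with retinoid X receptors and bind direct repeats of a short core, AGGTCA, near the genes they control. In the heart PPAR alpha and PPAR delta maintain the enzymes of fatty acid use, so their targets rise with fatty acid supply, as in fasting. Uncoupling proteins are carriers of the inner mitochondrial membrane. Ucp3 is largely a muscle gene and a fatty acid responsive one, while Ucp2 is also made by immune and other cells.

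The start regions of Ucp3, Ucp2 and Retsat are shown because Ucp3 and Retsat fell in CKD and Ucp2, the neighbour and paralogue of Ucp3, did not. The sequences are RefSeq's on GRCm38.p6 and run 5′ to 3′ along the gene, from 250 bases before a gene start to 50 after it. For Ucp2 the start behind this window lies downstream of the first base of the gene as given further on. Such a sequence was matched for 4 of the 7 genes, the fourth being Cyp4b1. Capitals mark AGGTCA on either strand.
Ucp3, chr7:100472741-100473040, plus strand: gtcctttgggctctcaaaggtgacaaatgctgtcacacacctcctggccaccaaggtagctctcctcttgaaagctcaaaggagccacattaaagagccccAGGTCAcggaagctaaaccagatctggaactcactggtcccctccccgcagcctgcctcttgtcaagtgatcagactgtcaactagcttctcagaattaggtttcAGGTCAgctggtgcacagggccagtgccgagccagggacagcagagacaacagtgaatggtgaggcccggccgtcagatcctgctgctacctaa
Ucp2, chr7:100493108-100493407, plus strand: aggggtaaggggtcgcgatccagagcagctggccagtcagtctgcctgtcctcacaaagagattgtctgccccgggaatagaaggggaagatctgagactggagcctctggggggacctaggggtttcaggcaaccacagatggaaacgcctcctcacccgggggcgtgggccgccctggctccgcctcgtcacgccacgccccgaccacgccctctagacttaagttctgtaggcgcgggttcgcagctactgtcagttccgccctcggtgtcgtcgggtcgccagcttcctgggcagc
Retsat, chr6:72598352-72598651, plus strand: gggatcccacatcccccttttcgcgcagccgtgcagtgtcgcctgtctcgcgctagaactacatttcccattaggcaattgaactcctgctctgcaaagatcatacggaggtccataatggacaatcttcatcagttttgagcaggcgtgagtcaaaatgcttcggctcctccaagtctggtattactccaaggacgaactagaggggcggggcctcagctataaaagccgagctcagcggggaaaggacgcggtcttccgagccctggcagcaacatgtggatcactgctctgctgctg

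The Ucp3 window held the letters AGGTCA at 2 places, starting at bases 102 and 207 of the window (chr7:100472842-100472847 and chr7:100472947-100472952), both on the strand of the gene. The Ucp2, Retsat and Cyp4b1 windows held none. Of all 32851 start regions of the same length, 16.3% held AGGTCA on either strand at least once and 1.81% held it at 2 or more places. A direct repeat of 2 such cores with any 1 base between them, on either strand, was in none of the 4 windows and in 13 of all start regions (0.0396%). A match describes letters only, and the lack of one says nothing of sites outside the window.

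CKD 1 and Sham 1 stood apart from the other 8 libraries. Their 10 most abundant genes took 14.8% and 15.3% of the summed FPKM, against 17.6% to 18.2% elsewhere, and they lay at 0.53 and 0.61 on the second principal component, against -0.40 to 0.04. Among entries of at most 0.2 FPKM, 26.5% to 30.5% of values stood at a single ratio to those of Sham 2 (log2 ratios equal to 3 decimals) in each of the 7 other libraries, against 0.436% in CKD 1 and 0.546% in Sham 1. Results are therefore given with all 10 libraries and with 8. Of heart muscle markers, 13 of 15 were tested and none was called at an adjusted p under 0.05 (3 at an unadjusted p under 0.05, limma). Over all tested genes 3.17% were called higher in CKD and 2.12% lower. Myh6 and Atp2a2 were listed at 0 in all 10 libraries. As both are markers of heart muscle, a listed 0 need not mean that a transcript was absent. Without CKD 1 and Sham 1, Tnnc1 was called higher and Tnni3 lower.

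In the Sham ventricle Fabp4 was by far the most abundant of the 7, at 1190 ± 86.7 FPKM (SD, n = 5), and ranked 63 of 17709 entries above 0 by its mean over all mice. Retsat followed at 38.8 ± 1.01 FPKM, and its lowest Sham value, 37.5, lay above the highest Sham value of Cyp4b1, 29.9. Cyp4b1 (25.1 ± 3.59) and Ucp3 (22.3 ± 3.62) overlapped, as did Ucp3 and Ucp2 (16.6 ± 2.21). Angptl4 was lower still at 4.43 ± 1.43 FPKM. Vnn1 was close to 0 in every mouse. In CKD the order of Ucp2 and Ucp3 was turned, at 21.7 ± 3.81 FPKM for Ucp2 and 13.6 ± 4.27 for Ucp3.

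**Figure D1:**
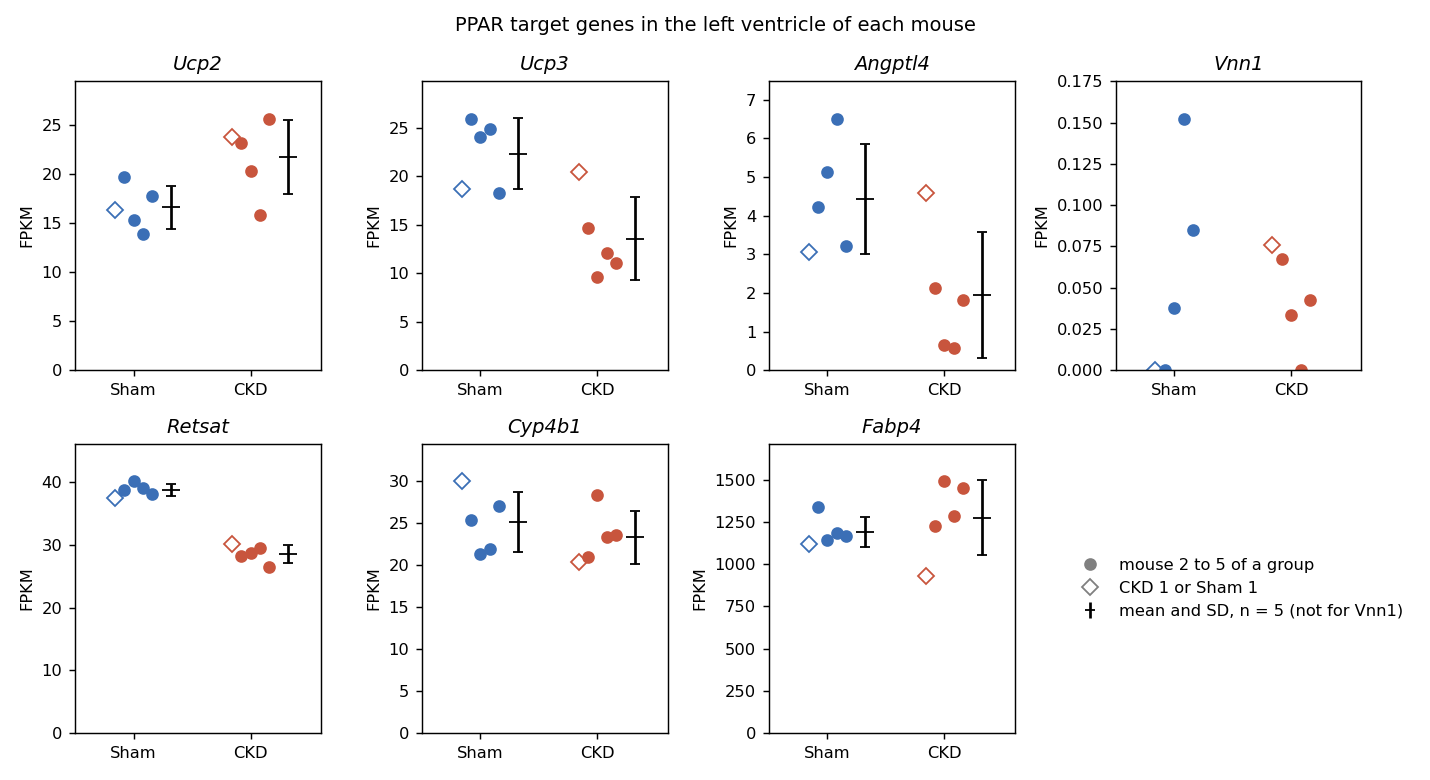
FPKM of the 7 genes in each mouse (points; open diamonds are CKD 1 and Sham 1), with the mean and SD of 5 mice beside them except for Vnn1, and every vertical axis starting at 0. All 5 Retsat values in CKD (at most 30.2 FPKM) lie below all 5 in Sham (at least 37.5), while Ucp3 and Angptl4 separate the groups except for CKD 1.

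Retsat and Ucp3 fell in CKD and none of the 6 tested genes rose. Of the 6 tested genes 2 were called lower, where 2.12% of all tested genes were, and 0 were called higher, where 3.17% of all were (1 had a positive change at an unadjusted p under 0.05). The calls are from limma on log2(FPKM + 0.5), with Benjamini-Hochberg adjustment over all 11651 genes and a threshold of 0.05. Without CKD 1 and Sham 1, Angptl4 was called lower as well, making 3 of 6 against 2.14% of all genes. The median change of the 6 was -0.27 (log2), against -0.0035 over all tested genes.

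Ucp3 is a mitochondrial carrier of skeletal muscle and heart whose exact substrate is debated. It lies on chromosome 7 from 100472991 to 100486432. In the Sham mice 1 to 5 its levels were 18.7, 25.9, 24.0, 24.8 and 18.2 FPKM, and in the CKD mice 1 to 5 they were 20.5, 14.7, 9.59, 12.1 and 11.1. In CKD 4 of 5 mice were below the lowest Sham mouse, and CKD 1 was the exception. The change was -0.73 (log2, SE 0.18, adjusted p = 0.0363, 95% interval -1.12 to -0.34), a fall of 39.8% on the log2(FPKM + 0.5) scale. Without CKD 1 and Sham 1 the groups did not overlap, as for 6.46% of all genes in that direction, and the change was -0.95 (SE 0.14, adjusted p = 0.00867). With a single library left out, the call held without CKD 1, Sham 1 or Sham 5 and was lost without CKD 2, CKD 3, CKD 4, CKD 5, Sham 2, Sham 3 or Sham 4 (adjusted p = 0.0634 to 0.0891). Between CKD 1 and Sham 1 alone the sign was opposite, at 20.5 against 18.7 FPKM.

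Ucp2, which exports metabolites such as aspartate from mitochondria, starts 6904 bases after the end of Ucp3 (chromosome 7, 100493337 to 100499629). Its levels were 16.3, 19.6, 15.3, 13.9 and 17.7 FPKM in Sham mice 1 to 5 and 23.7, 23.1, 20.3, 15.8 and 25.6 in CKD mice 1 to 5. In CKD 4 of 5 mice were above the highest Sham mouse, and CKD 4 lay among the Sham values. The difference of 0.37 (log2, SE 0.13, 95% interval 0.09 to 0.64) did not pass over all genes (adjusted p = 0.121). When CKD 4 was left out the difference of 0.48 passed (adjusted p = 0.0231), and in the 8-library fit it was 0.33 (adjusted p = 0.256). In the GENCODE annotation its exons overlap those of Dnajb13 on the opposite strand. Whether counting used strand is not known here, and Dnajb13 was at 0 to 0.533 FPKM in all 10 libraries.

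The balance of the 2 uncoupling proteins differed between the groups. Ucp3 was above Ucp2 in 5 of 5 Sham mice, with Ucp3 to Ucp2 ratios of 1.03 to 1.79, and below it in 5 of 5 CKD mice, with ratios of 0.432 to 0.864. The change of Ucp3 was lower than that of Ucp2 by 1.10 on the log2 scale (difference -1.10, SE 0.23, two-sided exact permutation p = 0.00794, adjusted over 3 such differences p = 0.0238). That p is the smallest that 5 against 5 mice can give. Without CKD 1 and Sham 1 the difference was -1.28 (SE 0.25, exact permutation p = 0.0286, adjusted p = 0.0429). That p is the smallest that 4 against 4 mice can give. Its adjusted p passed only because the difference of Angptl4 and Lpl, given below, had the same p. The difference of Ucp3 and Ucp2 also passed in each fit without a single library, close to the threshold in most (adjusted p = 0.0238 to 0.0476).

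**Figure D2:**
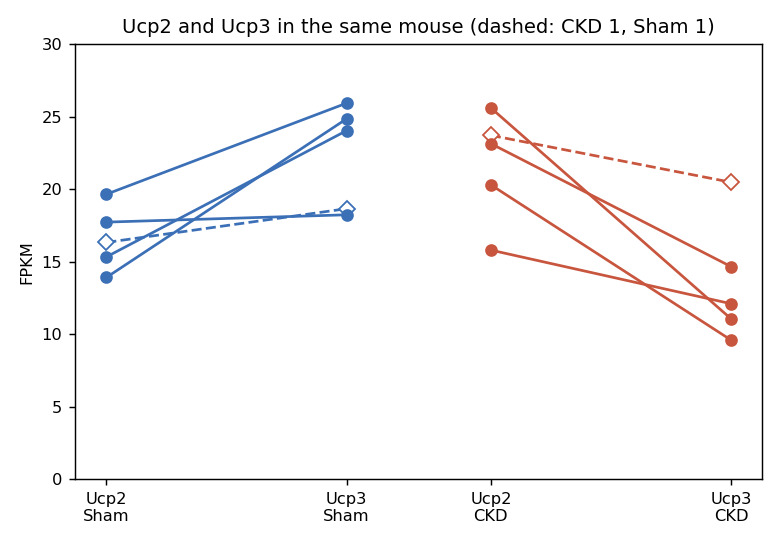
FPKM of Ucp2 and Ucp3 joined by a line for each mouse, 5 Sham (left) and 5 CKD (right), with CKD 1 and Sham 1 dashed. Every Sham line runs upward from Ucp2 to Ucp3 (ratio 1.03 to 1.79) and every CKD line downward (0.432 to 0.864).

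Ucp1, the uncoupling protein of brown fat, was listed at 0 in 9 libraries and at 0.0594 FPKM in Sham 2. Among 9 related carriers, Ucp1 and the adenine nucleotide translocases included, limma called 0 of 8 tested at either fit (0 at an unadjusted p under 0.05 with 10 libraries), with a median of -0.0037. With 10 libraries 3.17% of all genes were called higher and 2.12% lower, so 0 of 8 lies near the shares of all genes.

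Retsat, an enzyme of the endoplasmic reticulum that saturates a double bond of retinol, gave the steadiest change of the group. It lies on chromosome 6 from 72598602 to 72607488. In the GENCODE annotation its exons overlap those of Gm45053 on the opposite strand, which was not analysed here, and without strand reads of the pair cannot be told apart. Its levels were 37.5, 38.8, 40.2, 39.2 and 38.2 FPKM in Sham mice 1 to 5, and 30.2, 28.2, 28.7, 29.6 and 26.5 in CKD mice 1 to 5. The groups did not overlap, as for 3.18% of all genes in that direction, and CKD 1 and Sham 1 lay beside the others of their groups. The change was -0.43 (log2, SE 0.05, adjusted p = 0.000813, 95% interval -0.54 to -0.33), a fall of 25.9%, and its p ranked 19 among all tested genes. It was -0.46 without CKD 1 and Sham 1 (adjusted p = 0.00260). The call held in each fit without a single library (adjusted p = 0.00131 to 0.00401).

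The other genes of retinoid metabolism on the list were retinol carriers, retinol dehydrogenases and retinoic acid receptors. Limma called 0 of 14 tested genes of that list in the 10-library fit and 0 in the 8-library fit (with 10 libraries, 1 higher and 4 lower at an unadjusted p under 0.05), and the median was 0.07.

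Angptl4 is secreted by muscle, fat and vessels in fasting, and inhibits lipoprotein lipase, the enzyme that frees fatty acids from circulating triglyceride. It is on chromosome 17 from 33774900 to 33781575. Its levels were 3.07, 4.23, 5.13, 6.50 and 3.22 FPKM in Sham mice 1 to 5 and 4.57, 2.11, 0.658, 0.566 and 1.83 in CKD mice 1 to 5. The CKD mice ranged over 8.08-fold, the widest span of the 6 tested genes in either group, and CKD 1 alone lay within the Sham range. With all libraries the change of -1.20 (log2, SE 0.38, 95% interval -2.03 to -0.38) did not pass (adjusted p = 0.0905). With CKD 1 left out it was -1.53 (adjusted p = 0.0152). In the 8-library fit it reached -1.63 (SE 0.31, adjusted p = 0.0224), and the groups did not overlap, as for 6.46% of all genes in that direction. CKD 1 had more Angptl4 than Sham 1, at 4.57 against 3.07 FPKM. Low levels lie near the pseudocount of 0.5, so these folds understate the change.

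Lpl, which encodes the lipase, had 1731 ± 109 FPKM in the Sham mice and 1822 ± 101 in the CKD mice (SD, n = 5), a difference of 0.07 (log2, SE 0.05, adjusted p = 0.504). The change of Angptl4 was lower than that of Lpl by 1.28 (difference -1.28, SE 0.47, two-sided exact permutation p = 0.0317, adjusted p = 0.0476). Its adjusted p passed only because the difference of Ucp3 and Ucp2 had a smaller p. As Lpl hardly changed, this difference is mostly the change of Angptl4 itself, which did not pass over all genes with 10 libraries. It is therefore no separate evidence for that change. Without CKD 1 and Sham 1 the difference was -1.70 (SE 0.40, exact permutation p = 0.0286, adjusted p = 0.0429), again at the smallest p that 4 against 4 mice can give. The pass of this difference held without CKD 1 (adjusted p = 0.0238). It was lost without any other single library, that is CKD 2, CKD 3, CKD 4, CKD 5 or any Sham mouse (adjusted p = 0.0714 to 0.0952). Of 10 tested genes of the list of angiopoietin-like proteins and lipase partners 1 rose, against 3.17% of all genes, and 0 fell, against 2.12% (1 at an unadjusted p under 0.05). The gene that rose was the lipoprotein receptor Lrp1 (log2 0.44, SE 0.09, adjusted p = 0.0145).

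**Figure D3:**
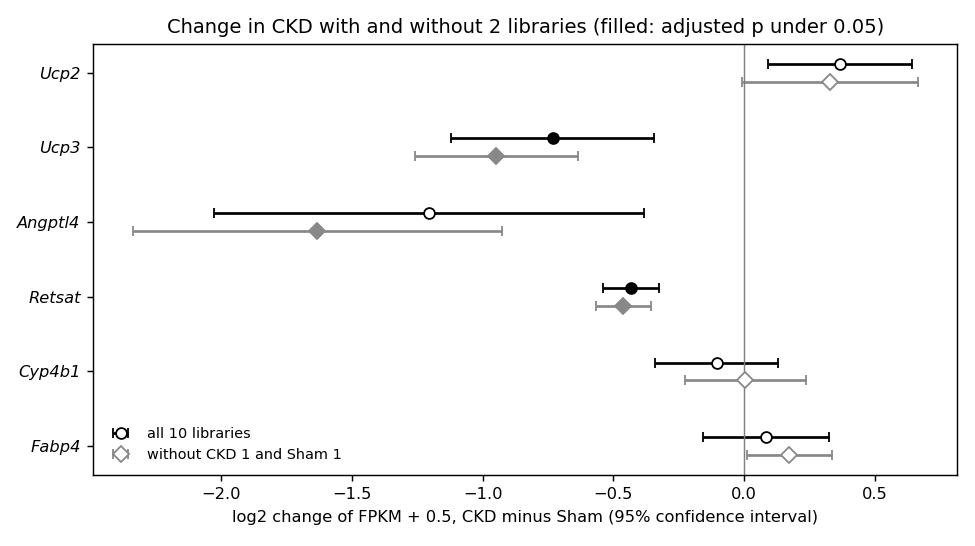
Change in CKD (log2 of FPKM + 0.5, CKD minus Sham, with its 95% interval) of the 6 tested genes with all 10 libraries (black circles) and without CKD 1 and Sham 1 (grey diamonds); filled symbols passed an adjusted p under 0.05. Angptl4 passes with the 8 libraries (-1.63) and not with the 10 (-1.20), and Retsat has the narrowest intervals.

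Ucp3 and Angptl4 varied together over the 10 mice. Pearson's r of their log2 values was 0.92 over the 10 libraries, 0.91 over 8, and 0.84 over the 10 after each group's mean was subtracted. Pdk4, the kinase that shuts pyruvate dehydrogenase when fatty acids are used and a further PPAR target, was set beside them after its values were seen. Its r was 0.78 with Ucp3 and 0.82 with Angptl4 over 10 libraries, and 0.89 and 0.91 over 8. Pdk4 stood at 107, 249, 321, 288 and 178 FPKM in Sham mice 1 to 5 and at 308, 187, 130, 88.8 and 112 in CKD mice 1 to 5, and its change did not pass with 10 libraries (log2 -0.51, adjusted p = 0.463) but did with 8 (-1.02, adjusted p = 0.0406). CKD 1 was the highest CKD mouse for all of Ucp3, Angptl4 and Pdk4. The r of 0.84 still holds CKD 1, and the other r values hold the difference between the groups. No r within groups was taken without CKD 1 and Sham 1. How far mice of a group varied together without CKD 1 is therefore not shown. These r values describe points that share libraries and carry no test.

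**Figure D4:**
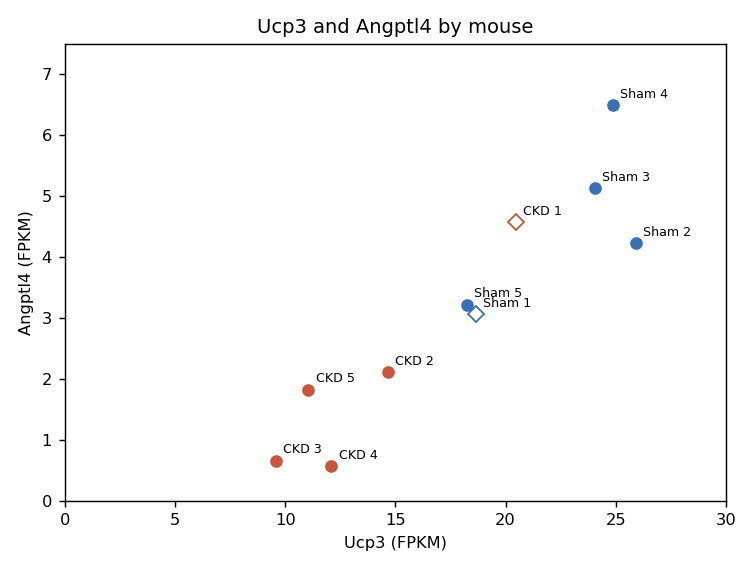
Angptl4 against Ucp3 (FPKM, both axes from 0) in each of the 10 mice, Sham in blue and CKD in red, with CKD 1 and Sham 1 as open diamonds. Mice low in Ucp3 are low in Angptl4 (r = 0.92 on log2 values), and CKD 1 lies among the Sham mice.

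Fabp4 carries fatty acids in the cytosol of fat cells, capillary endothelium and macrophages. On chromosome 3 from 10204342 to 10208616, it was at 1120, 1339, 1141, 1182 and 1167 FPKM in Sham mice 1 to 5 and at 929, 1226, 1490, 1284 and 1449 in CKD mice 1 to 5. The groups overlapped, CKD 1 being the lowest of all 10 and 2 CKD mice lying above the highest Sham mouse. The difference was 0.08 (log2, SE 0.11, adjusted p = 0.744, 95% interval -0.16 to 0.33), and 0.17 (SE 0.07, adjusted p = 0.219) without CKD 1 and Sham 1. Fabp3, the form of heart muscle, had 3318 ± 291 FPKM in the Sham mice and 3265 ± 292 in the CKD mice (SD, n = 5). The changes of Fabp4 and Fabp3 differed by 0.11 (SE 0.09, exact permutation p = 0.246, adjusted p = 0.246), which did not pass. Without CKD 1 and Sham 1 they differed by 0.17 (SE 0.09, exact permutation p = 0.2, adjusted p = 0.2). Limma called 0 of the 3 tested genes among 8 other fatty acid binding proteins (0 at an unadjusted p under 0.05). Over all genes 3.17% were called higher and 2.12% lower.

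Markers of the cells that make Fabp4 were set beside it, and their part in its level was not tested. Of 18 capillary endothelial markers limma called 0 (2 higher at an unadjusted p under 0.05), near the shares of all genes, 3.17% called higher and 2.12% lower. The change was positive in 11 of the 18, and their median was 0.09 (0.11 in the 8-library fit). Their summed level, with Cd36 as its largest member, was 1710 to 1808 FPKM in CKD and 1705 to 1923 in Sham. Pecam1, an endothelial adhesion protein, had 55.7 ± 2.95 FPKM in the Sham mice and 61.1 ± 6.20 in the CKD mice (SD, n = 5). Cd36, a fatty acid transporter of endothelium and muscle, had 763 ± 102 and 697 ± 74.2. Of 11 adipocyte markers 5 were tested and 0 called (0 at an unadjusted p under 0.05), near the shares of all genes. Their summed level was 44.0 to 60.7 FPKM in CKD and 48.8 to 54.4 in Sham. Most of that sum was Cidea (mean 24.6 FPKM in Sham, 26.3 in CKD) and Lipe (20.1 and 19.0). It therefore says little of the markers near 0, such as Adipoq. Adipoq, the fat cell hormone adiponectin, was at 0 to 0.643 FPKM in CKD and 0.368 to 0.730 in Sham.

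Macrophage markers, which bear on Ucp2 and Fabp4, were higher in CKD, and their part in the levels of these genes was not tested. Of 14 tested 10 rose and 0 fell, against 3.17% of all genes called higher (9 of 14 in the 8-library fit, against 2.62%). Their summed level was 452 to 644 FPKM in CKD and 319 to 374 in Sham. C1qa, C1qb and C1qc, the complement chains of tissue macrophages, rose by 0.81, 0.91 and 0.69 (log2), Tyrobp, a myeloid signalling adaptor, by 0.64, and Cd68 by 0.67 (adjusted p = 0.000813 to 0.00689). Limma called 7 of 12 fibroblast markers higher, against 3.17% of all genes, and 0 lower, against 2.12% (0 at an unadjusted p under 0.05). In the 8-library fit 5 of 12 were higher, against 2.62%. The 4 with the smallest p, Mfap5, Pi16, Postn and Col1a2, changed by 1.07, 0.74, 1.22 and 0.60 (adjusted p = 0.0007 to 0.00333). Of the 12 fibroblast markers 11 had a positive change, and their median was 0.46. Summed fibroblast levels were 1407 to 1615 FPKM in CKD and 1243 to 1367 in Sham. In whole tissue, a change in the number of cells of a type and a change in RNA per cell cannot be told apart. Limma called 0 of 4 tested mesothelial markers and 0 of 3 tested red blood cell markers (0 and 0 at an unadjusted p under 0.05). Both counts lie near the shares over all genes, 3.17% called higher and 2.12% lower.

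Cyp4b1, a P450 that hydroxylates fatty acids and is strong in lung, lies on chromosome 4 from 115624698 to 115647721. Its levels were 29.9, 25.3, 21.3, 21.9 and 27.0 FPKM in Sham mice 1 to 5 and 20.3, 20.9, 28.3, 23.3 and 23.5 in CKD mice 1 to 5. The groups overlapped, with Sham 1 the highest mouse and CKD 1 the lowest. The difference was -0.11 (log2, SE 0.11, adjusted p = 0.661, 95% interval -0.34 to 0.13), and without those 2 libraries it was 0.0055 (SE 0.10, adjusted p = 0.985, interval -0.22 to 0.24), a change of sign. Of 10 tested P450 hydroxylases, epoxygenases and partners 1 fell, against 2.12% of all genes, and 0 rose, against 3.17% (0 at an unadjusted p under 0.05). The gene that fell was Ephx2, the soluble epoxide hydrolase that breaks down epoxides of fatty acids (139 ± 4.87 FPKM in the Sham mice, 118 ± 8.21 in the CKD mice, SD, n = 5, log2 -0.24, adjusted p = 0.0228). The call of Ephx2 was lost without CKD 2, CKD 5 or Sham 3 (highest adjusted p = 0.0627).

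Vnn1, an enzyme of the cell surface that splits pantetheine and is strongly PPAR alpha dependent in liver, was barely present. It lies on chromosome 10 from 23894688 to 23905344. It was listed at 0, 0, 0.0375, 0.152 and 0.0852 FPKM in Sham mice 1 to 5 and at 0.0758, 0.0676, 0.0337, 0 and 0.0425 in CKD mice 1 to 5. After multiplication by the libraries' relative depths, the values of the 8 libraries with a common step were whole multiples of a single step (to within 0.001 steps), with 0, 1, 4 and 2 steps in Sham 2 to 5 and 2, 1, 0 and 1 in CKD 2 to 5. At such levels no difference was detectable, and no fold is given. Its paralogue Vnn3 was at 0 to 0.117 FPKM. Limma called 0 of 12 tested genes of coenzyme A and pantetheine metabolism (2 lower at an unadjusted p under 0.05), with a median of -0.07. That count lies near the shares over all genes, 3.17% called higher and 2.12% lower.

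The receptors showed no called change while many of their other targets were lower. Limma called 0 of 18 PPAR receptors, retinoid X partners and coregulators in either fit (3 lower at an unadjusted p under 0.05 with 10 libraries). Over all genes 3.17% were called higher and 2.12% lower with 10 libraries, and 2.62% and 2.14% with 8. A count of 0 of 18 lies near these shares. In the Sham mice and the CKD mice, in that order, Ppara had 17.6 ± 0.779 and 16.5 ± 0.936 FPKM, Ppard 10.1 ± 0.485 and 10.8 ± 0.800, and Pparg 7.64 ± 1.13 and 8.63 ± 1.20 (SD, n = 5), with adjusted p = 0.432 to 0.465. Of 41 tested other PPAR targets 17 fell and 0 rose, against 2.12% of all genes called lower (1 had a positive change at an unadjusted p under 0.05), and their median change was -0.25. In the 8-library fit 19 fell, 16 of them among the 17, against 2.14% of all genes.

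The 4 falls with the smallest p in that list were enzymes of fatty acid oxidation in mitochondria. Ech1, an auxiliary isomerase for unsaturated fatty acids, changed by -0.56 (adjusted p = 0.000267), and Acadm, the medium-chain dehydrogenase, by -0.35. Hadha, a subunit of the trifunctional protein, changed by -0.38 and Acaa2, the terminal thiolase, by -0.47 (adjusted p = 0.000876 to 0.00205 for these 3). The 5 CKD values lay below the 5 Sham values for 17 of the 41 genes, against 3.18% of all. Called changes in the list ran from -0.90 to -0.25 (log2), so the fall of Ucp3 (-0.73) and that of Retsat (-0.43) lay within their range. The rise of the list's highest gene, Mgll, a lipase of monoglycerides named for its place in the order, was 0.16 and did not pass.

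**Figure D5:**
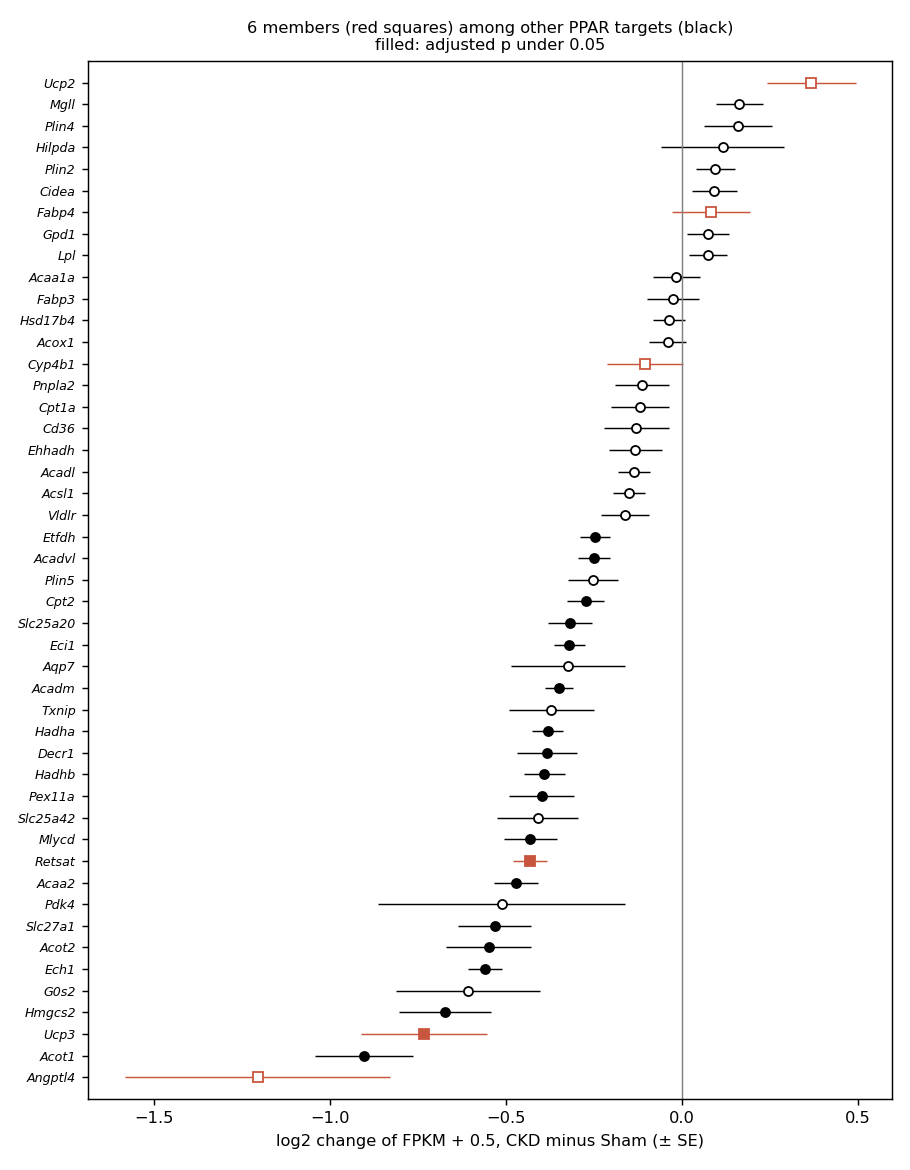
Change in CKD (log2 of FPKM + 0.5, CKD minus Sham, ± SE, 10 libraries) of the 6 tested genes (red squares) among 41 other PPAR targets (black circles), ordered by change; filled symbols passed an adjusted p under 0.05. All 19 filled symbols lie left of 0, and Ucp2 has the highest and Angptl4 the lowest change, neither of them past the threshold.

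Angptl4, Ucp3 and Pdk4 are also known to respond to glucocorticoids, and Angptl4 to hypoxia, so those lists were read too. Of 14 glucocorticoid targets 4 rose with 10 libraries, against 3.17% of all genes, and 0 fell, against 2.12% (0 at an unadjusted p under 0.05). Over the whole list the change was positive in 9 of 14 genes, called or not, and the median was 0.22. Fkbp5, which binds and restrains the glucocorticoid receptor, had 3.71 to 9.69 FPKM in the Sham mice and 11.2 to 29.0 in the CKD mice (log2 1.40, SE 0.25), and the metallothionein Mt2 rose 3.02-fold. Mt1 (0.60) and the iron carrier protein Lcn2 (0.82) passed with 10 libraries but not with 8 (adjusted p = 0.107 and 0.0686), which left 2 of 14, against 2.62% of all genes. The number was also 2 without CKD 3, CKD 5 or Sham 3. With a single library left out, Mt1 was lost without CKD 1, CKD 3, CKD 5, Sham 1, Sham 3, Sham 4 or Sham 5 (adjusted p up to 0.0858), and Lcn2 without CKD 3, CKD 5, Sham 2 or Sham 3 (up to 0.0636). Of 14 tested hypoxia targets 1 rose, against 3.17% of all genes. It was the mitophagy receptor Bnip3 (log2 0.29, adjusted p = 0.0297), whose call needed each of Sham 2, Sham 3, Sham 5, CKD 3 and CKD 5 (adjusted p up to 0.0814 without any of them). In that list 0 fell (1 at an unadjusted p under 0.05).

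The tested genes most like each of the 6 in pattern over the 10 libraries were ranked by Pearson's r of log2 values among 10894 named genes, as a description. Each r holds any difference between the groups and is among the highest of many genes over few mice. Retsat ran closest to Hspd1, a mitochondrial chaperonin (r = 0.99 over 10 and 8 libraries), and Lepr, the leptin receptor (0.97 and 0.96). Like Retsat, both were called lower in CKD, and Lepr ranked 27 for Retsat with 8 libraries. Ucp3 ran closest to Asb4 (0.96 and 0.98) and Rapsn (0.95 and 0.94), and Angptl4 to Lsmem1 (0.94 and 0.94) and Hexim1 (0.94 and 0.94). Ucp2 ran closest to Arpc1b, a subunit of the actin-nucleating Arp2/3 complex (0.96 and 0.96), and Tinagl1 (0.94 and 0.96). Cyp4b1 ran closest to Naprt1 (0.93 and 0.95) and Cacnb2 (0.92 and 0.96), and Fabp4 to Fam21 (0.92 and 0.94) and Larp1b (0.92 and 0.93).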

How the data were processed

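RNA sequencing of the left ventricle of 5 CKD and 5 Sham mice was read from a single table of FPKM values that the authors deposited, 1 value per gene entry and library, with no column left unused. Per the submitters' processing notes, STAR 2.4.0f1, Cufflinks 2.1.1 and Cuffdiff 2.1.1 and the builds mm10 and hg19 were used, with no role given. The table gives no read numbers, so no interval for counting error is given and no count model was fitted. The summed FPKM of a library ranged from 570509 to 605007. Relative depth, from the steps between low values, could be read for 8 libraries and ranged from 0.906 to 1.15 times that of Sham 2.

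Values were taken as log2(FPKM + 0.5) with no further scaling, and genes with a mean of at least 1 FPKM over the 10 libraries were tested with limma 3.58.1 in R 4.3.3 with moderated variances that follow a mean-variance trend, two-sided. Differences between the changes of 2 genes were compared by exact permutation over mice (scipy 1.17.1). Groups came from the surgery label, and mice are numbered in each group only as names. The 7 genes and 17 lists were chosen with earlier results of these data known. Named genes were the 7, up to 4 called genes of each list with the smallest p, 13 genes given whatever their value, and the 2 tested genes with the highest r with each of the 6. Mgll, Tnnc1, Tnni3, Dnajb13, Myh6, Atp2a2, Cidea, Lipe and Rbp4 fall outside that rule and were named after their values were seen. Alternatives were other pseudocounts (0.1 and 1), filters, scalings and variance models, sample weights, and leaving out libraries. Gene positions and start regions are RefSeq's on GRCm38.p6, the assembly that mm10 denotes.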

Additional observations from a re-analysis of the deposited data

Results flagged for a closer look

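Of 76 groups of 5 values examined (38 named genes in CKD and in Sham), 1 had a library far from the other 4. It was Ucp1 in Sham 2, at 0.0594 FPKM against 0 in the other 4 Sham libraries and 0 in all CKD libraries. With 4 values at 0, any value above 0 stands apart in this way, so the usual chance of about 1 in 20 does not apply to it.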

How the results depend on the processing

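Retsat was called lower in all 20 alternatives (log2 -0.46 to -0.40), and without a single library its change was -0.45 to -0.40. Ucp3 kept its direction in all 20 and was called in 12. It was lost with no filter on the mean (-0.73, adjusted p = 0.0591) and ranged from -0.89 to -0.62 without a single library. Angptl4 kept its direction in 19 alternatives and passed in 3, with sample weights (-1.61, adjusted p = 0.0144), with both CKD 1 and Sham 1 left out (-1.63) and without CKD 1, and ranged from -1.53 to -0.97 without a single library. The filter at a mean of 5 FPKM left it out. Ucp2 passed in 1 alternative, without CKD 4, and ranged from 0.31 to 0.48 without a single library. Cyp4b1 passed in none and changed sign with sample weights (0.015) and with both CKD 1 and Sham 1 left out (0.0055), ranging from -0.18 to -0.04 without a single library. Fabp4 passed in none (0.02 to 0.19 without a single library). The differences between changes ranged from -1.22 to -0.98 for Ucp3 and Ucp2, from -1.63 to -1.03 for Angptl4 and Lpl, and from 0.06 to 0.16 for Fabp4 and Fabp3 without a single library. Over all genes, 369 were higher and 247 lower, and the numbers without a single library were 201 to 384 and 131 to 290. With sample weights 511 were higher and 400 lower. Mice carry no pairing in the labels. No paired analysis was possible because the replicate numbers name mice in accession order only. The cause of these differences between alternatives was not tested. Values near the pseudocount, as for Angptl4 and Vnn1, limit what can be seen at this depth.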
